A study of Homo sapiens with 3 samples.

Results

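Integrin beta subunits and the cytoplasmic linkers that tie them to actin were followed in PC-3 cells, an established human prostate cancer cell line, that had received short hairpin RNA (shRNA) by lentivirus. The genes were a list of 10, chosen with earlier results of these data known. They were the beta subunits ITGB1, ITGB2, ITGB3, ITGB4, ITGB5 and ITGB8 and the linkers TLN1, VCL, ILK and PXN. Each symbol was matched to its Entrez identifier in the deposited tables, and all 10 were found among the 18331 identifiers listed in any library and were among the 14016 genes tested. The messenger RNA libraries numbered 3, each prepared 7 days after infection. Of these, 2 came from cells given KMT2D shRNA (libraries 1 and 2, genotype given as KMT2D deficiency) and 1 from cells given control shRNA (genotype given as KMT2D normal). Their titles read KMT2D shRNA1, KMT2D shRNA2 and Control shRNA, and do not say what the number marks. Whether the libraries come from separate cultures or different hairpins is thus not labelled. The p-values therefore measure only the spread between these libraries, which may be technical. In edgeR that spread is pooled across all genes, so a gene's own gap between the labelled libraries weighs little. The control was not replicated and was assumed to vary like the labelled libraries.

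Integrins are cell surface receptors made of 1 alpha and 1 beta chain. The beta chain's cytoplasmic tail binds talin (TLN1), which switches the receptor on and links it to actin. Vinculin (VCL) strengthens that link under load, integrin-linked kinase (ILK) acts as a scaffold with PINCH and parvin proteins, and paxillin (PXN) docks the kinases of the adhesion. ITGB1 pairs with most alpha chains and binds collagens, laminins and fibronectin. ITGB4 pairs with ITGA6 and joins laminin to keratin filaments in hemidesmosomes.

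Library totals ran from 5123817 to 5559504 estimated counts. KMT2D, the targeted gene, was not below the control in either labelled library: it stood at 107 and 138 CPM (a gene's count as a share of the scaled library total) against 100.1 in the control, so directions below are given for the labels, not for loss of KMT2D. Fold change rose with transcript length across all tested genes (Spearman coefficient over genes 0.456 for library 1, 0.460 for library 2; genes do not count as replicates). For that reason values with the fitted length trend removed are given for the 10 genes and, as counts and medians, for most lists. The log2 fold change of KMT2D itself was 0.29 and did not pass (adjusted p by edgeR = 0.227). It turned with the setting: -0.60 with the length trend removed (adjusted p by edgeR = 0.039), 0.52 with the GC trend removed (0.0387) and -0.42 with both removed (0.11). The epithelial keratin genes KRT8, KRT18 and KRT19 were at 104.76 FPKM or more in every library. EPCAM was at 9.53 to 14.1 FPKM and CDH1 at 2.57 to 3.78 FPKM. FPKM is the deposited level, scaled for transcript length and library size. KLK3 and KLK2, genes of the prostate lumen, were listed in no library.

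The upstream windows of ITGB1 and the linkers that rose are shown because these genes moved in the same direction and a reader may compare their start regions. They are the 250 bases before the outermost listed start, 5′ to 3′ on the gene's strand, from RefSeq on GRCh38.p14, with 7 of the 10 genes matched in that table. The authors' own build was hg19. Capitals mark the GC box GGGCGG and the TEAD core GGAATG, each searched on both strands.
ITGB1 chr10:32958231-32958480 (- strand): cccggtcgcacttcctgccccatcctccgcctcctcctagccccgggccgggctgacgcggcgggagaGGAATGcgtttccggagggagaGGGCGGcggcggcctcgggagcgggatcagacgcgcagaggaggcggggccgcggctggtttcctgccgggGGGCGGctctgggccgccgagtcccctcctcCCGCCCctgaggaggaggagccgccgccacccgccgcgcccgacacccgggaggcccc
TLN1 chr9:35732196-35732445 (- strand): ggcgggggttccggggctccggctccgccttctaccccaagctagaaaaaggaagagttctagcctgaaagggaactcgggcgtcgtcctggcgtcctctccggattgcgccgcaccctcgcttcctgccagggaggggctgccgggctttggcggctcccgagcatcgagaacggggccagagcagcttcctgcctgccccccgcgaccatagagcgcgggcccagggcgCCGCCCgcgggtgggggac
VCL chr10:73997866-73998115 (+ strand): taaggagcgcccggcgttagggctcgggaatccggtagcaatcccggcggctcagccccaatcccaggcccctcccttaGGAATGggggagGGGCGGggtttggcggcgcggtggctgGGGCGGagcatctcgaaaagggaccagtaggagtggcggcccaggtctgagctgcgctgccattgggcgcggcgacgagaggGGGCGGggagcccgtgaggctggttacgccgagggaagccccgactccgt
PXN chr12:120265731-120265980 (- strand): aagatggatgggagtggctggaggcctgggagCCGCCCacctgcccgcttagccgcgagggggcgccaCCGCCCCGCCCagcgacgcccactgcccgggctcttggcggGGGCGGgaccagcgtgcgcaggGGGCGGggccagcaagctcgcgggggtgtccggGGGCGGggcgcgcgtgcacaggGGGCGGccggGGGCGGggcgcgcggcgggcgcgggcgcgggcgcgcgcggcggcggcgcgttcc
The GC box was found 3 times for ITGB1, 1 time for TLN1, 3 times for VCL and 8 times for PXN, some of them overlapping, and 42.6% of all 35116 windows of this length hold it. All 7 matched genes hold it, also ITGB8, which rose, and ITGB5 and ILK, which were not called, with 2 matches each. The TEAD core was found 1 time each for ITGB1 and VCL, starting 182 and 171 bases before the start, and in none of the other 5 windows; 11.9% of all windows hold it. The CArG box, searched by name as the serum response element core, was in none of the 7 windows and in 1.16% of all. These matches describe letters, not binding.

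The comparison asked how these adhesion genes differed between KMT2D shRNA and control shRNA. Of the 10 genes, 6 rose and 0 fell: the beta subunits ITGB1, ITGB3 and ITGB8 and the linkers TLN1, PXN and VCL. Over all genes tested, 31.1% passed edgeR's quasi-likelihood test (adjusted p below 0.05), 16.5% higher and 14.5% lower. The median log2 fold change of the 10 genes was 0.54, against -0.01 for all genes tested. In CPM, both labelled libraries stood above the control for 8 of the 10 genes, where 41.5% of tested genes did so, and below it for ITGB2 alone, where 42.8% did so; ITGB4 was above the control in 1 library and below it in the other. Once the length trend was removed, 1 of the 10 genes, ITGB1, was called by edgeR, where 15.4% of all genes were (7.51% higher and 7.9% lower). The median of the 10 genes was then 0.29, and that of all genes 0.00.

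**Figure D1:**
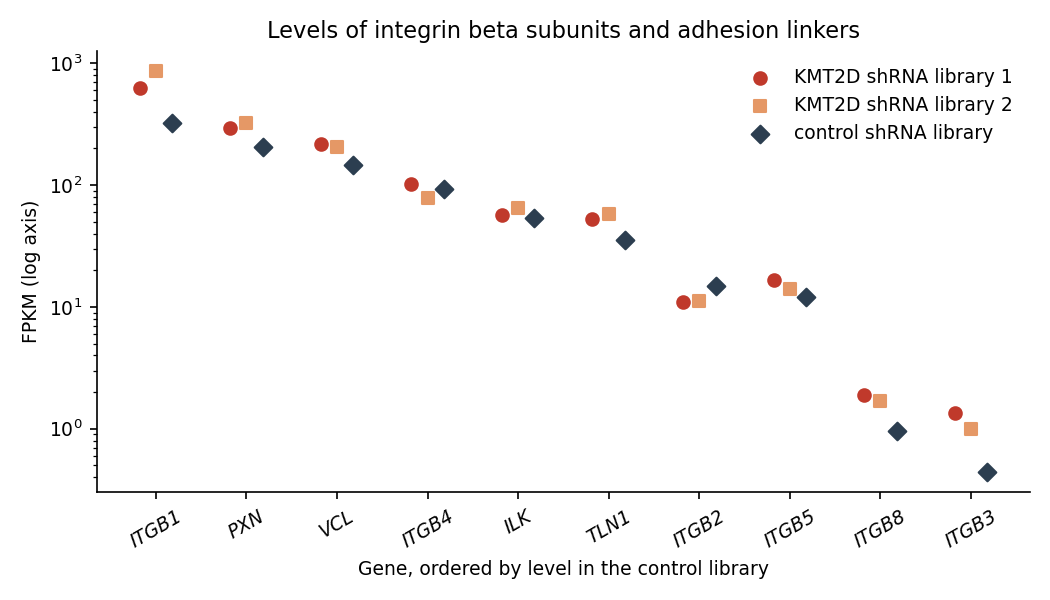
FPKM (log axis) of each gene in each library, ordered by the control level, with 1 point a library. ITGB1 is the most abundant in every library, ITGB3 the least, and the ITGB1 points of the labelled libraries, at 632 and 868, stand above the control at 323.

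ITGB1 (Entrez gene 3688), the common beta chain, was the most abundant of the 10 genes in every library. Its level was 632 FPKM in library 1, 868 FPKM in library 2 and 323 FPKM in the control, resting on 12631, 17272 and 6940 counts. By FPKM it ranked 71st and 40th among all genes of libraries 1 and 2, and 220th in the control. Both labelled libraries were thus well above the control, and they also differed from each other. Scaled for library size, ITGB1 was 1.92-fold the control in library 1 (95% interval 1.86 to 1.97) and 2.70-fold in library 2 (2.63 to 2.78); these exact binomial intervals, here and below, cover counting error only. ITGB1 rose to 2909 ± 700 CPM (SD, n = 2) against 1260.5 CPM, giving a log2 fold change of 1.21 ± 0.17 (SE; adjusted p = 1.43e-07 by edgeR). At its transcript length of 3847 bases the fitted trend came to 0.14, and with the trend removed ITGB1 still rose, with a log2 fold change of 1.06 ± 0.19 (SE; adjusted p = 0.00165 by edgeR). The rise also passed with length and GC trends removed together (0.99, adjusted p by edgeR = 0.0182), but not with limma on FPKM (adjusted p = 0.076 to 0.212), where none of the 10 genes passed. In a bulk library fewer cells of a type and less RNA per cell cannot be told apart, which holds for every gene here.

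ITGB3 and ITGB8, the other beta chains that rose, are partners of the alpha V chain. ITGB3 (Entrez gene 3690), which binds vitronectin and fibronectin, was the least abundant gene, at 1.34 and 0.99 FPKM in libraries 1 and 2 against 0.44 in the control. Those levels rest on 34, 25 and 12 counts, so the intervals are wide: 2.98-fold the control in library 1 (1.51 to 6.32) and 2.26-fold in library 2 (1.09 to 4.94). The log2 fold change of ITGB3 was 1.38 ± 0.51 (SE; adjusted p = 0.0359 by edgeR). ITGB8 (Entrez gene 3696), whose integrin binds latent TGF-beta, was at 1.88 and 1.69 FPKM against 0.96 FPKM. The labelled libraries were close to each other and both above the control, a log2 fold change of 0.89 ± 0.29 (SE; adjusted p = 0.0178 by edgeR). Neither call held with the length trend removed, where ITGB3 was at 1.11 ± 0.50 (SE; adjusted p = 0.149 by edgeR) and ITGB8, with a transcript of 8787 bases, at 0.33 ± 0.28 (SE; adjusted p = 0.462 by edgeR).

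ITGB4, ITGB5 and ITGB2 did not pass the test. ITGB4 (Entrez gene 3691), the hemidesmosome chain and the beta chain next in abundance to ITGB1, was at 103 FPKM in library 1, 78.25 in library 2 and 93.6 in the control. The control lay between the labelled libraries, and the log2 fold change was -0.07 ± 0.17 (SE; adjusted p = 0.775 by edgeR). At the transcript length of ITGB4, 5711 bases, the fitted trend came to 0.35, and with it removed ITGB4 was at -0.43 ± 0.17 (SE; adjusted p = 0.0972 by edgeR); with the GC trend alone removed it was at 0.26 (adjusted p by edgeR = 0.314), so its sign depends on the setting. ITGB5 (Entrez gene 3693), a vitronectin-binding partner of alpha V, was at 16.7 and 13.9 FPKM against 12 FPKM, a log2 fold change of 0.33 ± 0.19 (SE; adjusted p = 0.196 by edgeR), or 0.26 ± 0.19 without the length trend (0.389). Both labelled libraries were above the control, by less than the test requires. ITGB2 (Entrez gene 3689), the beta chain of leukocyte integrins, was at 10.9 and 11.3 FPKM against 14.8 FPKM, a log2 fold change of -0.44 ± 0.20 (SE; adjusted p = 0.0894 by edgeR), or -0.43 ± 0.19 without the length trend (0.14).

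Because ITGB2 marks leukocytes, its partners and other leukocyte genes were read beside it. Its alpha partners ITGAL, ITGAM and ITGAX were at 0.44 FPKM or less in every library, and ITGAD was not listed in any. Of 12 leukocyte markers 7 were listed in any library, and their summed level was 43.5 and 49.0 FPKM in libraries 1 and 2 against 104 in the control. Nearly all of that sum was CD68 and LYZ, which fell, though with the length trend removed CD68 alone did (LYZ -0.30, adjusted p by edgeR = 0.341). PTPRC, which defines leukocytes, was at 0.77 to 1.47 FPKM, and CD3D, CD3E, MS4A1 and FCGR3A were listed in no library. CD14, CSF1R and SPI1 were at 0.48 FPKM or less, and CORO1A was at 1.90 to 4.41 FPKM. The part of these genes in the level of ITGB2 was not tested.

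The make-up of the beta pool differed between the labels. Summed over all 8 beta subunits, ITGB6 and ITGB7 included, the level was 766 and 975 FPKM in libraries 1 and 2 against 448 FPKM in the control. ITGB1 made up 82.5% and 89.1% of that sum, against 72.2% in the control. ITGB4 made up 13.4% and 8.03%, against 20.9%. Per length, ITGB1 was at 6.16 and 11.1 times the level of ITGB4 in the labelled libraries and at 3.45 times in the control. ITGB2 and ITGB5 held 1.15% to 3.30% each in every library, and ITGB3 and ITGB8 0.245% or less each. With 1 control library these shares are a description, with no test. The total of all FPKM values was itself lower in the labelled libraries, at 416144 and 416500 against 494836, so FPKM and shares of all FPKM scale differently.

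**Figure D2:**
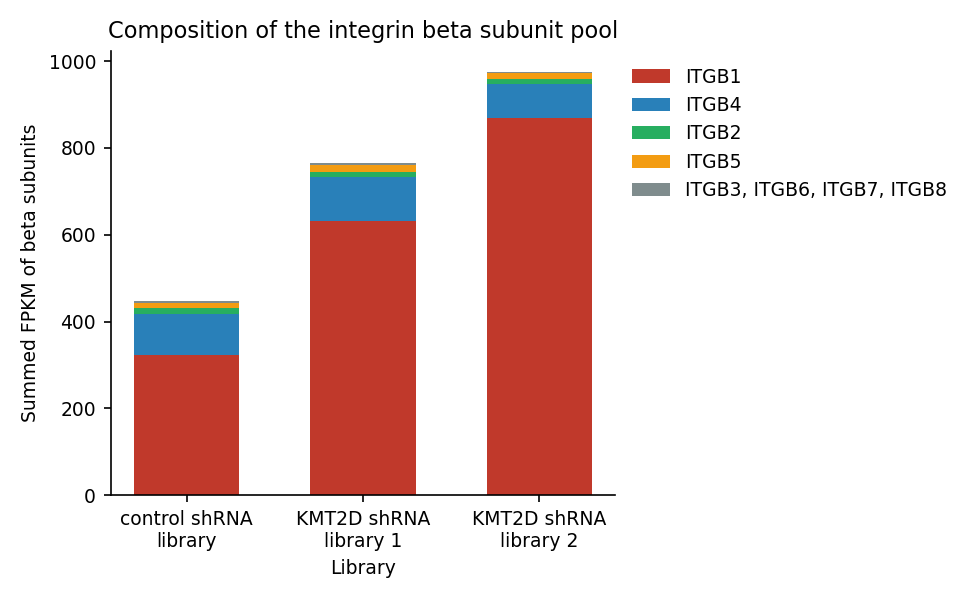
Summed FPKM of the beta subunits in each library, with 1 bar a library and colours for subunits. The bars reach 448 in the control, 766 in library 1 and 975 in library 2, and the ITGB1 segment is the one that differs most in height while ITGB4 stays between 78.25 and 103.

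Among the linkers, TLN1, PXN and VCL rose by similar amounts and ILK did not pass. TLN1 (Entrez gene 7094), which encodes talin, was at 53.2 and 58.25 FPKM in libraries 1 and 2 against 35.8 FPKM in the control. Both labelled libraries exceeded the control, and the log2 fold change was 0.62 ± 0.17 (SE; adjusted p = 0.004 by edgeR). PXN (Entrez gene 5829), the paxillin gene, was at 295 and 325 FPKM against 207 FPKM, a log2 fold change of 0.57 ± 0.16 (SE; adjusted p = 0.00482 by edgeR). VCL (Entrez gene 7414), the vinculin gene, was at 216 and 207 FPKM against 147 FPKM, a log2 fold change of 0.50 ± 0.16 (SE; adjusted p = 0.0117 by edgeR). PXN and TLN1 kept similar proportions in the 3 libraries. PXN was at 5.55 and 5.58 times the level of TLN1 in the labelled libraries and 5.78 times in the control. VCL was at 4.07 times the level of TLN1 in library 1 and 4.11 times in the control, but lower, at 3.55 times, in library 2. ILK (Entrez gene 3611) was at 57.3 and 64.4 FPKM against 54.1 FPKM, a log2 fold change of 0.16 ± 0.18 (SE; adjusted p = 0.515 by edgeR).

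The linkers differ in transcript length. TLN1 has a transcript of 8434 bases, at which the fitted trend was 0.54, and with the trend removed its log2 fold change was 0.08 ± 0.17 (SE; adjusted p = 0.794 by edgeR). VCL, at 5451 bases and a fitted 0.33, was then at 0.17 ± 0.15 (SE; adjusted p = 0.477 by edgeR). The calls of TLN1 and VCL were thus lost. PXN, at 3742 bases and a fitted 0.13, kept most of its difference at 0.44 but narrowly missed the threshold (SE 0.16, adjusted p by edgeR = 0.0746), and it passed with length and GC trends removed together (0.57, adjusted p by edgeR = 0.0251). ILK is the shortest of the 10 transcripts at 1804 bases, where the fitted trend was -0.26, and moved the other way, to 0.42 ± 0.18 (SE; adjusted p = 0.122 by edgeR).

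**Figure D3:**
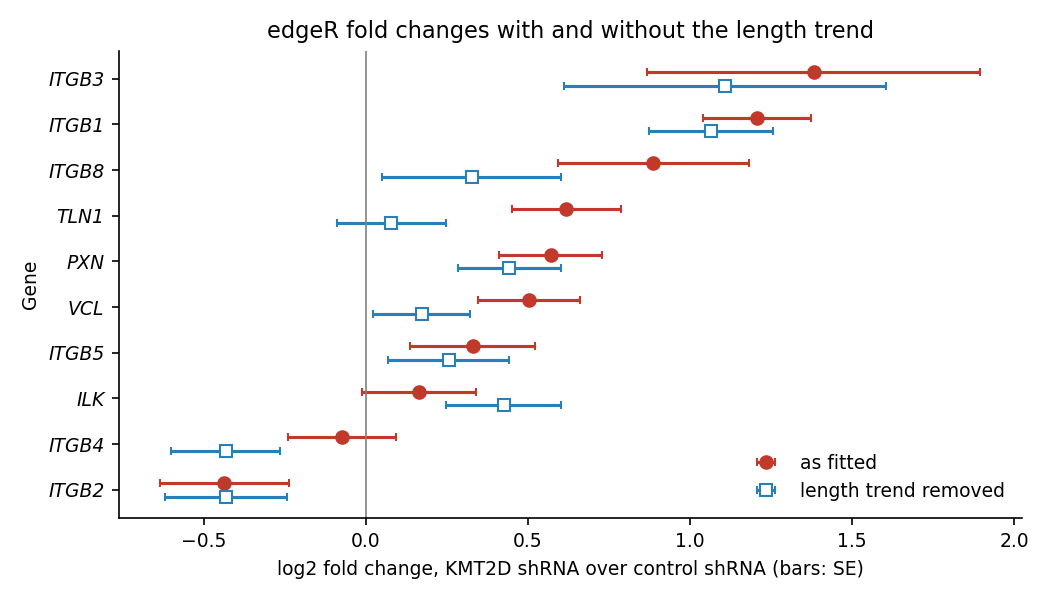
edgeR log2 fold change of each gene, labelled libraries over control (bars are SE), as fitted (filled) and with the length trend removed (open). ITGB1 moves little, from 1.21 to 1.06, TLN1 moves from 0.62 to 0.08, and ILK moves up from 0.16 to 0.42.

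**Figure D4:**
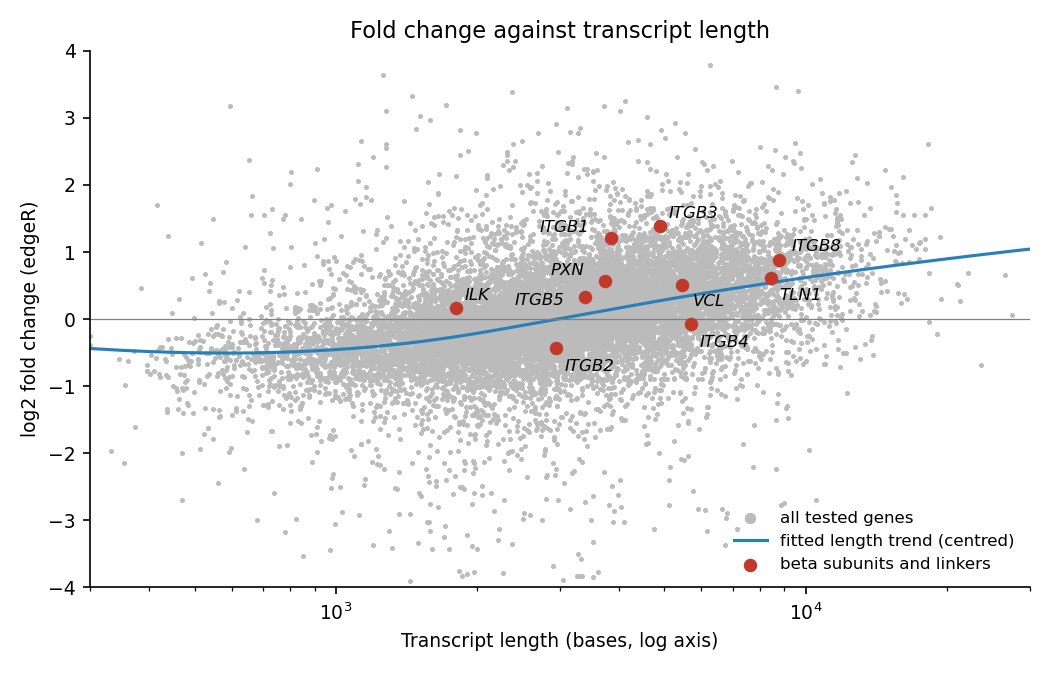
edgeR log2 fold change against transcript length (log axis) for all tested genes (grey; 103 lie outside the axes), the fitted trend (line) and the 10 genes (red). ITGB1 and ITGB3 lie more than 1 log2 unit above the line, TLN1 lies near it, and ITGB4 and ITGB2 lie below it.

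The RefSeq start and end coordinates of some members overlap those of a neighbour. Whether their exons overlap was not checked. No strand-marking step is described in the protocol, so reads of such a pair cannot be told apart where transcripts do overlap. PXN overlaps the antisense gene PXN-AS1, which was at 241 and 227 counts against 85, beside 5725, 6286 and 4324 counts for PXN. VCL overlaps AP3M1 (2653 and 2874 counts against 1698), and ILK overlaps TAF10, which ran the other way (245 and 231 counts against 452). ITGB4 overlaps GALK1 (154 and 161 counts against 179), and ITGB2 overlaps ITGB2-AS1 (9 and 13 counts against 16).

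The labelled libraries also differed from each other beyond counting error for 5 of the 10 genes, where 23.2% of all tested genes did so. Intervals are narrower for abundant genes and wider for those with few counts, such as ITGB3 and ITGB8. ITGB1 was 1.41-fold higher in library 2 than in library 1 (95% interval 1.38 to 1.44). ITGB4 went the opposite way, at 0.781 times its level in library 1 (0.740 to 0.825). TLN1, ILK and PXN were at 1.12 to 1.15 times their library 1 level in library 2. For VCL the ratio was 0.980 (0.946 to 1.02), and for ITGB2, ITGB3, ITGB5 and ITGB8 the intervals also included 1. The size of the ITGB1 rise therefore depends on the library: its log2 ratio to the control was 0.94 in library 1 and 1.43 in library 2.

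The genes whose pair of log2 ratios lay nearest to that of ITGB1 over the 3 libraries were OTUB2, SLC7A2, ROBO1, SCARA3 and KLHL23, at distances of 0.0352 to 0.0825. Within the adhesion lists the nearest to ITGB1 was FERMT1 (distance 0.115), an activator that binds beta tails beside talin. PLEC was nearest to both TLN1 and PXN (0.0701 and 0.0151). CSK lay nearest to ILK (0.0465), CLTC to ITGB8 (0.0471), ITGA7 to ITGB5 (0.034), ROCK1 to ITGB3 (0.163), ARF6 to ITGB2 (0.132) and RAC1 to ITGB4 (0.168). With 3 libraries many genes share such a pattern.

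The rest of the pathway was read from lists that were also chosen with earlier results known, starting outside the cell. To set beside the counts below, 16.5% of all genes tested rose and 14.5% fell (7.51% and 7.9% with the length trend removed). Median transcript length was 10186 bases for hemidesmosome partners, 6264 for ligands and 4258 for focal adhesion signalling, but 1916 for integrin inactivators. All genes tested had a median of 2962.5 bases. Of the integrin ligands 10 of 15 tested rose and 0 fell (median log2 fold change 0.78). Fibronectin, FN1, a ligand of ITGB1 integrins, was at 257 and 331 FPKM against 62.0 FPKM in the control (log2 fold change 2.22, or 1.68 with the length trend removed). COL4A1, a basement membrane collagen chain, rose by 1.54 and THBS1, thrombospondin, by 1.36 on the log2 scale. The laminin chains LAMA3 and LAMB3, from a ligand of the ITGB4 integrin, had log2 fold changes of 0.44 and 0.04, and LAMB3 did not pass; nor did LAMA3 without the length trend (0.02). With the length trend removed 4 of the 15 ligands rose, with a median of 0.40.

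Of 12 alpha subunits tested, 5 rose and 2 fell (median 0.44), and with the length trend removed 4 rose and 2 fell (median 0.25). Partners of ITGB1 went both ways: ITGA1 rose by 2.21 and ITGA6 by 1.48, while ITGA3 had a log2 fold change of -0.66 and ITGA5 of -0.67, both lower by the test. ITGAV, the partner of ITGB3, ITGB5 and ITGB8, rose by 1.39. ITGA6, the partner of ITGB4, was at 101 and 89.6 FPKM against 33.8 FPKM, so that per length ITGB4 stood at 1.01 and 0.874 times ITGA6 in the labelled libraries and at 2.77 times in the control. The sum over all beta chains was 1.65 and 1.96 times the sum over all alpha chains in the labelled libraries and 0.829 times in the control. Each sum rests largely on 1 gene, ITGB1 for the beta chains and ITGA3 for the alpha chains. ITGA3 was at 231 and 280 FPKM of alpha sums of 465 and 496 FPKM in libraries 1 and 2. In the control it was at 398 of 540 FPKM. Of the other beta chains, ITGB7, a lymphocyte chain, fell at low level (0.62 and 0.28 FPKM against 2.88; log2 fold change -2.67, adjusted p by edgeR = 9.58e-05; 0.00317 once the length trend was removed). ITGB6 was at 0.40 and 0.24 FPKM and not listed in the control, and was not tested.

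Inside the cell, 10 of 28 other linkers and activators rose and 2 fell (median 0.32). KANK1, which binds talin at the adhesion rim, rose by 1.70, LPP, a zyxin family protein, by 1.20 and the ILK partner PARVA by 1.18 on the log2 scale. The zyxin family gene TRIP6 and the vinculin-binding SORBS3 fell by 0.79 and 0.59. With the length trend removed KANK1, PARVA and FERMT1 rose, 3 in all, and 0 fell (median 0.19), while LPP, with a transcript of 17986 bases, was at 0.34 (adjusted p by edgeR = 0.197). The 3 integrin inactivators tested gave 0 that rose and 1 that fell, SHARPIN, by 0.72 on the log2 scale (adjusted p by edgeR = 0.000854), which missed the threshold once the trend was taken out (adjusted p = 0.0756).

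Of 23 focal adhesion signalling genes 11 rose and 0 fell (median 0.48). They included the phosphatase gene PTPN11, which rose by 1.38, the Rac activator gene DOCK1 by 1.32 and the kinase gene ROCK2 by 1.22 on the log2 scale. PTK2, the focal adhesion kinase that paxillin docks, was at 91.0 and 79.9 FPKM against 59.9 FPKM (log2 fold change 0.49, adjusted p by edgeR = 0.0228; 0.321 once the length trend was removed). With the length trend removed 5 of these genes rose and 2, SRC and CRKL, fell (median 0.26). SRC, CRKL and PTK2 were singled out after their values were seen.

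Hemidesmosome partners of ITGB4 gave 2 of 4 that rose, PLEC by 0.57 and DST by 0.85 on the log2 scale. Both have transcripts 14762 bases or longer, and none of the 4 passed with the length trend removed (median 0.01), where PLEC was at -0.21 and DST at 0.02. Of 8 tested genes of integrin traffic 3 rose, CLTC, RAB11A and RAB4A, and 1 fell, ARF6 (median 0.35). With the length trend removed 0 rose and ARF6 alone fell, at -0.65.

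**Figure D5:**
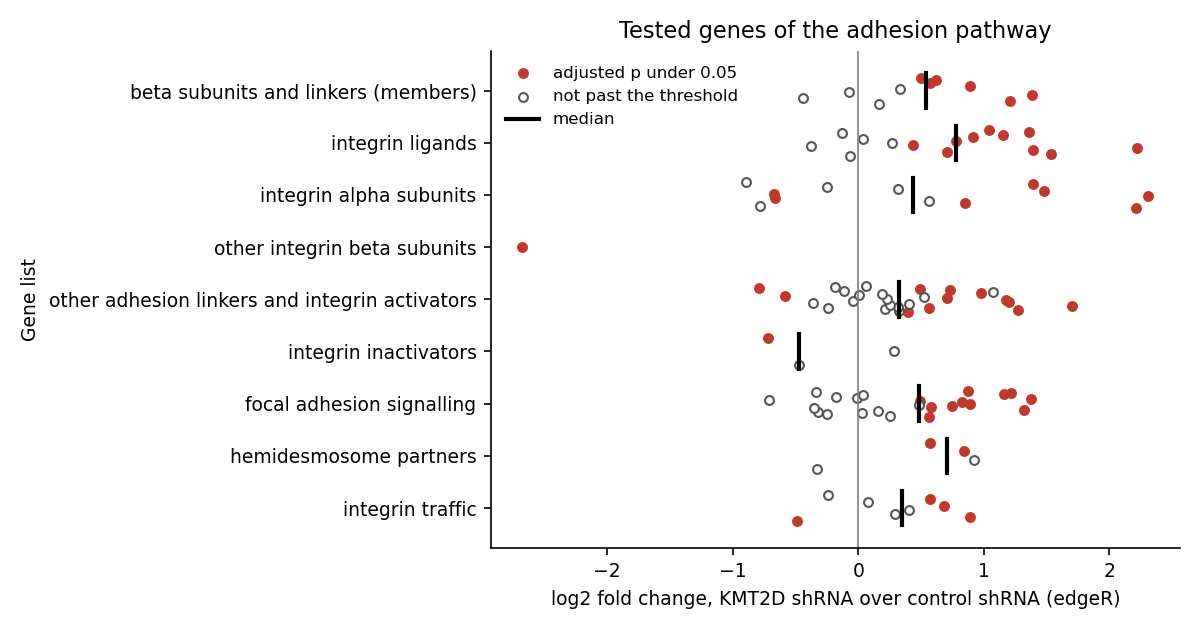
edgeR log2 fold change of every tested gene on each adhesion list (filled, adjusted p under 0.05; open, not past the threshold; bar, median). Most called genes lie to the right of 0, with medians from 0.32 to 0.78 for the lists of 4 or more genes, before any length trend is removed.

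Markers of other cell types were read as well. Of the 5 epithelial markers KRT18, KRT19 and KRT8 fell and 0 rose (median -0.67), with summed levels of 538 and 553 FPKM against 907 FPKM, and 1 fell with the length trend removed. The 5 prostate luminal markers gave 2 tested genes with none called, and sums of 18.3 and 13.4 FPKM against 12.4 FPKM. Among 6 fibroblast markers 2 were tested and PDGFRA rose by 2.05 on the log2 scale; the sum was 69.8 and 71.1 FPKM against 67.7 FPKM, nearly all from COL1A1, while DCN and LUM were at 0.30 FPKM or less and THY1 was listed in no library. The 6 megakaryocyte and endothelial markers gave sums of 5.19 and 5.87 FPKM against 4.72 FPKM with none called. Most of each sum was PECAM1, at 2.73 to 2.90 FPKM, and ITGA2B, at 1.61 to 2.91 FPKM. PF4 was at 0.45 FPKM or less, and GP9, CDH5 and VWF were listed in no library. The part of these markers in the adhesion results was not tested.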

How the data were processed

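RNA was selected by poly(A) tail, fragmented, primed at random and sequenced on a BGISEQ-500, per the labels' protocols. The submitters' processing notes name HISAT, Bowtie2 and hg19 without roles; the counting tool is not given in the sources used here. The authors deposited expected counts (estimated reads per gene, not normalized; about 68.0% whole) and FPKM, per the file headers, with the transcript length in bases.

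The 3 tables were joined by Entrez identifier, and a gene left out of a table was taken as 0. Symbols came from RefSeq (GRCh38.p14): 18214 identifiers matched, 6 more did so by transcript, and 111 stayed unnamed. Counts were rounded and tested with edgeR 4.0.16 in R 4.3.3: default filter by group, TMM scaling, quasi-likelihood F test on group, Benjamini-Hochberg adjustment over all 14016 genes, threshold 0.05, 1 residual degree of freedom. SE values derive from the F statistic. The spread was pooled across genes, with a weight given by the prior degrees of freedom. Their median was 45.7, 13.9 with the length trend removed and 8.14 with length and GC trends removed. Calls lost in those fits thus also follow a change in pooling. Ratios per library used a prior count of 2, and 3 counts, or 0.545 to 0.591 CPM, was taken as the floor. The length and GC trends were spline fits (5 degrees of freedom) of each labelled library's log2 ratio, centred on their median and removed as offsets; 98.2% of tested genes had a GC value from GENCODE transcripts. DESeq2 1.42.0 and limma 3.58.1 (log2 FPKM plus 1 or 0.1) served as alternatives. Scripts were tested on simulated data.

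The members and lists were chosen with earlier results of these data known. Named were the 10 members, KMT2D, up to 3 genes each way per list (past the threshold, mean of 5 CPM or more, ranked by the less changed labelled library) and nearest genes by distance over the pair of log2 ratios. Any further named gene was chosen after its values were seen. Some genes of these lists are not reported here by name.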

Additional observations from a re-analysis of the deposited data

How the results depend on the processing

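The count of called genes among all tested was 4352, and 4330, 3245, 3642 and 3501 with DESeq2 size factors, library totals, a mean of 5 CPM or more and the GC trend removed. It was 1897 without a filter on low counts, 2159 with the length trend removed, 1803 with length and GC trends removed, 1175 with DESeq2, and 295, 99 and 0 with limma on log2(FPKM + 1), log2(FPKM + 0.1) and unfiltered log2(FPKM + 1). The number of genes tested also differed. It was 14016 in the main analysis and with trends removed, 18258 without a filter and 11904 with a mean of 5 CPM or more. DESeq2 tested 9764 genes, and limma 13301, 13301 and 18331. At an unadjusted p under 0.05 edgeR called 5711 genes and limma 4346, 4277 and 4568. Of the 10 genes, 6 passed in the main analysis, 1 without a filter on low counts, 1 with the length trend removed, 2 with length and GC trends removed (ITGB1 and PXN), 3 with DESeq2 (ITGB1, TLN1 and PXN) and 0 in each limma setting, where 4, 4 and 5 had p under 0.05 before adjustment (7 with edgeR). ITGB3 was not tested with a mean of 5 CPM or more, DESeq2 or filtered limma, so 9 of the 10 genes were tested there. ITGB1 passed in 8 of 11 alternatives, with adjusted p from 1.92e-07 to 0.212. PXN passed in 6, TLN1 in 5, VCL in 4, ITGB8 in 3 and, of the 7 that could test it, ITGB3 in 2. The genes not called at first (ITGB2, ITGB4, ITGB5 and ILK) were called in 0 of 11 alternatives each. ITGB4 turned to 0.26 with the GC trend removed; KMT2D turned to -0.60 with the length trend removed (adjusted p by edgeR = 0.039) and to -0.42 with both trends removed (0.11, not passing), but was higher, at 0.52, with the GC trend removed (0.0387). The cause of these differences was not tested. Leaving out a labelled library leaves 1 against 1 with no residual degrees of freedom, and then ITGB4 was at 0.09 in library 1 alone and at -0.26 in library 2 alone, and the log2 ratios of the called genes kept their sign. No paired analysis was possible because there was 1 control library, which carries no number in its label. Depth limits ITGB3, at 12 counts in the control, and ITGB8, at 47.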
